A study of Mus musculus with 10 samples.

Results

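The neuronal RNA-binding and splicing regulators described here are 10 genes chosen by name from 4 families, out of the 43629 gene identifiers in the count tables. They are Elavl2, Elavl3 and Elavl4 (the neuronal Hu proteins), Rbfox1, Rbfox2 and Rbfox3, Nova1 and Nova2, and Ptbp1 and Ptbp2. All 10 were found and all 10 passed the filter on low counts. The choice used no measured value of these samples, but it was made with earlier results of the same data known.

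Stranded RNA-seq counts per gene were examined for the dorsal telencephalon, the part of the embryonic forebrain that forms the cerebral cortex, of C57BL/6 mouse embryos at E14.5. The comparison asks which of these transcripts change when Dot1l, the gene of the histone H3 lysine 79 methyltransferase, is deleted. The 5 control samples carried no Cre and were Dot1l-cKO f/+, and the 5 Dot1l-cKO samples carried 1 Cre allele and were Dot1l-cKO f/f. According to the methods the controls were littermates. Every embryo thus had at least 1 conditional Dot1l allele. The Cre allele was present in the Dot1l-cKO group alone, so its part in a difference between the groups and that of the Dot1l deletion cannot be told apart here.

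Proteins of the Elavl family bind AU-rich and U-rich stretches of RNA and act on mRNA stability, translation and splicing, and the members described here mark neurons from an early stage. Rbfox and Nova proteins bind short motifs in pre-mRNA and set the inclusion of many neuronal exons. Ptbp1 is made in progenitors and non-neural cells and represses neuronal exons, while its relative Ptbp2 takes over during neuronal differentiation.

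Ptbp1 and Ptbp2 share a control of their own transcripts that gene-level counts do not resolve. In both genes the annotation holds an exon of 34 bases, exon 10 of 14, that is absent from transcripts marked for nonsense-mediated decay (NMD). Skipping of this exon shifts the reading frame, and repression of the Ptbp2 exon by Ptbp1 is a textbook example of cross-regulation. Both exons are shown because reads of transcripts with and without them fall in the same gene count. The Ptbp1 exon lies at chr10:79862014-79862047 on the plus strand and the Ptbp2 exon at chr3:119724612-119724645 on the minus strand of GRCm38. Each is given 5′ to 3′ on the gene's strand, with the bases that differ between the genes in capitals:
Ptbp1 exon 10: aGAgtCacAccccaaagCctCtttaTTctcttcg
Ptbp2 exon 10: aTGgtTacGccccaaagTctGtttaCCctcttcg
The exons are identical at 26 of 34 bases (76.5%). Each is missing from 2 annotated NMD transcripts, and Ptbp1 has 3 NMD transcripts among 16 and Ptbp2 has 2 among 13. None of the other 8 genes has an annotated NMD transcript. The counts per gene sum productive and unproductive transcripts, and the exon reads that would separate them were not analysed here.

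A microRNA with a known role in neural progenitors, miR-9, is shown because a host transcript of it differed between the genotypes (given further below). Its mature 5p arm, taken from RefSeq on GRCm38.p6, is made from 3 loci, of which Mir9-3 lies at chr7:79505279-79505301 on the plus strand. The seed, bases 2 to 8, is in capitals:
miR-9-5p: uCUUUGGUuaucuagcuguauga
The 7 letters ACCAAAG, which pair with that seed, were searched in the annotated 3′ UTR of each gene, on the transcript strand and in the coding transcript with the longest 3′ UTR. They occur 1 time each in Rbfox2, Ptbp1 and Ptbp2, at positions 477, 740 and 982 from the start of the 3′ UTR, and not in the 3′ UTRs of the other 7 genes:
Rbfox2: acagaattACCAAAGtggatctg
Ptbp1: aattttggACCAAAGtttagctt
Ptbp2: caggtgggACCAAAGtttatgtg
Among 21025 genes with an annotated 3′ UTR, 12.2% hold the same letters. Per length, the 3′ UTRs of all these genes hold 0.098 matches per kb. The 3′ UTRs searched here are 1477 to 6701 bases long, so the share of genes is not matched for length. Whether the matches exceed the rate per kb was not tested. A match is a description of the sequence and no evidence of binding.

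Total counts ranged from 54202349 to 66556034 per sample. In the 4 samples whose normalised table carries the header number 57 (replicates 2 and 3 of both groups), mitochondrial rRNA took 0.0471% to 0.492% of the counts, against 5.79% to 10.9% in the other 6 samples. The labels do not explain this number, of which the other 6 carry 3 different ones, and the 4 samples are called the header-57 samples. Dot1l itself was measured at 31.4 to 41.5 CPM (counts scaled to a library total of 1e+06) in controls and at 20.1 to 51.7 CPM in Dot1l-cKO (log2 fold change 0.081, adjusted p = 0.864, edgeR's quasi-likelihood test with Benjamini-Hochberg adjustment). A gene-level count includes exons outside the deleted part, so this value does not check the genotype.

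In edgeR's quasi-likelihood test over 17039 genes, 1212 genes (7.11%) passed a Benjamini-Hochberg adjusted p of 0.05, of which 966 (5.67%) were higher and 246 (1.44%) lower in Dot1l-cKO. The replicate block gave 1109 higher and 495 lower, and an offset for GC content gave 842 higher and 503 lower. None of the 10 genes was among the 1212, neither higher nor lower. DESeq2 called 0 of the 10 as well. At an unadjusted p under 0.05, Nova1 and Rbfox3 passed, as did 3508 of all genes. Of all genes tested, 8.34% had CPM values that did not overlap between the groups, and of the 10 genes 0 did. The fold changes were negative for 8 genes and positive for Elavl4 and Nova1, with a median log2 fold change of -0.16. The median over all genes tested was -0.0056. Among the 7610 genes at least as abundant as the least abundant of the 10, the median was -0.050, 36.5% had a positive fold change and 327 (4.3%) were called. The sign for Elavl4 turned negative with DESeq2's size factors, whereas that for Nova1 was positive under each of the 24 alternative settings.

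The precision of these samples limited how large an undetected change could be. For all 10 genes, the 95% interval of the log2 fold change, from the fit without a block, lay inside a 2-fold change either way. For 7 of them it lay inside 1.5-fold. The lowest bound was -0.76, for Nova2, and the highest was 0.96, for Nova1. Values below are CPM for replicates 1 to 5 in that order. Pairs are samples of equal replicate number. Agreement over the 5 pairs is a description that was not tested, and its share over all genes was not counted. P-values measure the spread between the 5 samples of each group, which the labels describe as biological replicates. In bulk tissue, fewer cells of a type and less RNA per cell cannot be told apart.

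**Figure D1:**
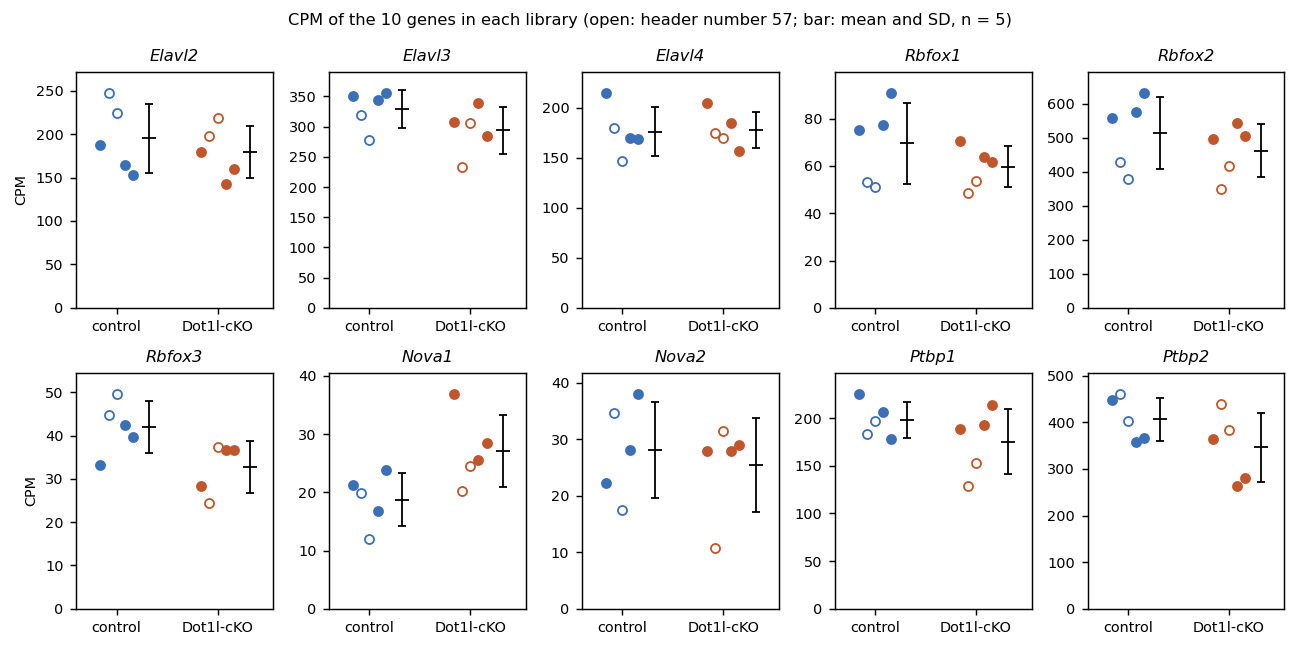
CPM (vertical axes, from 0) of each of the 10 genes in the 5 control (blue) and 5 Dot1l-cKO (orange) samples. Open points are header-57 samples, and bars give the mean and SD of 5 samples. The groups overlap in every panel, and in Rbfox1, Rbfox2 and Elavl2 the open points lie apart from the filled ones.

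Among the neuronal Elavl genes, Elavl3 (HuC, expressed widely in young neurons) had the highest level. Elavl3 (ENSMUSG00000003410, chr9:22015005-22052023, minus strand) measured 350.3, 318.5, 278, 344 and 355 CPM in controls. In Dot1l-cKO it measured 307, 234, 306, 339 and 285 CPM. The Dot1l-cKO values were lower in 4 of 5 pairs of equal replicate number, and replicate 2 was the lowest. The log2 fold change was -0.16 (SE 0.10, 95% interval -0.39 to 0.065), with an edgeR adjusted p of 0.429. It was -0.092 without Dot1l-cKO replicate 2.

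Elavl2 (HuB, ENSMUSG00000008489, chr4:91250763-91400785, minus strand) measured 187, 247, 224, 165 and 153 CPM in controls. In Dot1l-cKO its values were 179.8, 198, 219, 143 and 159.9 CPM. The highest 4 values of the 10 were those of the header-57 samples, whichever the genotype. The genotype difference was -0.12 on the log2 scale (SE 0.15, interval -0.45 to 0.21, edgeR adjusted p = 0.717). Single samples moved this value by over 1.5 times, to -0.021 without control replicate 2, -0.065 without control replicate 3 and -0.046 without Dot1l-cKO replicate 4, and to -0.20 without control replicate 5 or Dot1l-cKO replicate 3.

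Elavl4 (HuD, a stabiliser of mRNAs of neurite growth, ENSMUSG00000028546, chr4:110203722-110351909, minus strand) was the gene with the smallest difference. Its controls were at 214, 179, 147, 169.5 and 169 CPM and its Dot1l-cKO samples at 205, 174, 170.0, 185 and 157 CPM. The Dot1l-cKO values fell inside the range of the controls. The log2 fold change was 0.019 (SE 0.10, interval -0.21 to 0.25, edgeR adjusted p = 0.945).

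Elavl1 (HuR), the broadly expressed relative, was at 195 ± 23.1 CPM in controls against 167 ± 21.7 CPM in Dot1l-cKO (5 samples each, SD). Its log2 fold change was -0.22, and edgeR's adjusted p was 0.272. The log2 ratio of Elavl3 to Elavl1, per length, was 1.35 ± 0.29 in controls and 1.41 ± 0.18 in Dot1l-cKO.

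Rbfox2 is the Rbfox member found also in progenitors and outside the nervous system. In controls it had the highest mean of the 10 genes per kilobase of merged exons, but not per kilobase of the longest transcript. Rbfox2 (ENSMUSG00000033565, chr15:77078990-77307004, minus strand) measured 557, 429.5, 379, 577 and 631 CPM in controls. In Dot1l-cKO it was at 496.5, 349.8, 418, 542 and 505 CPM. The header-57 samples were the lowest 4 of the 10. The log2 difference between the genotypes was -0.16 (SE 0.16, interval -0.50 to 0.19, edgeR adjusted p = 0.634). It was -0.071 without Dot1l-cKO replicate 2, -0.072 without control replicate 5 and -0.25 without control replicate 3.

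Rbfox1, a splicing regulator of maturing neurons and muscle, spans 1526172 bases (ENSMUSG00000008658, chr16:5885355-7411526, plus strand). Its controls measured 75.4, 53.3, 50.9, 77.4 and 90.7 CPM. Its Dot1l-cKO samples measured 70.55, 48.4, 53.55, 63.6 and 61.9 CPM. The header-57 samples were again the lowest 4, and control replicate 5 was the highest. Its log2 fold change was -0.22 (SE 0.16, interval -0.58 to 0.14, edgeR adjusted p = 0.5), and -0.11 without control replicate 5. Within the header-57 samples the fitted value was -0.013.

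Rbfox3 encodes NeuN, an antigen of postmitotic neurons (ENSMUSG00000025576, chr11:118489762-118911597, minus strand). Its level was 33.25, 44.7, 49.5, 42.5 and 39.65 CPM in controls. In Dot1l-cKO it was 28.3, 24.4, 37.45, 36.75 and 36.7 CPM. The Dot1l-cKO value was the lower in 5 of 5 pairs, but control replicate 1 lay below 3 Dot1l-cKO samples, so the groups overlapped. The mean was 41.9 ± 6.04 CPM in controls against 32.7 ± 5.98 CPM in Dot1l-cKO (5 samples each, SD). The fold was 0.78 (log2 -0.36, SE 0.14, interval -0.66 to -0.052), with an unadjusted p of 0.0259 and an edgeR adjusted p of 0.17. With the replicate number as a block the edgeR adjusted p was 0.0814. The difference of mean log2 CPM was -0.64 within the header-57 samples, 2 against 2, and -0.18 within the other 6, 3 against 3. Without Dot1l-cKO replicate 2, its lowest sample, the fitted log2 fold change was -0.27 (edgeR adjusted p = 0.251). With the GC-content offset, an alternative added after seeing the data, Rbfox3 was called lower (-0.44, edgeR adjusted p = 0.029).

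**Figure D2:**
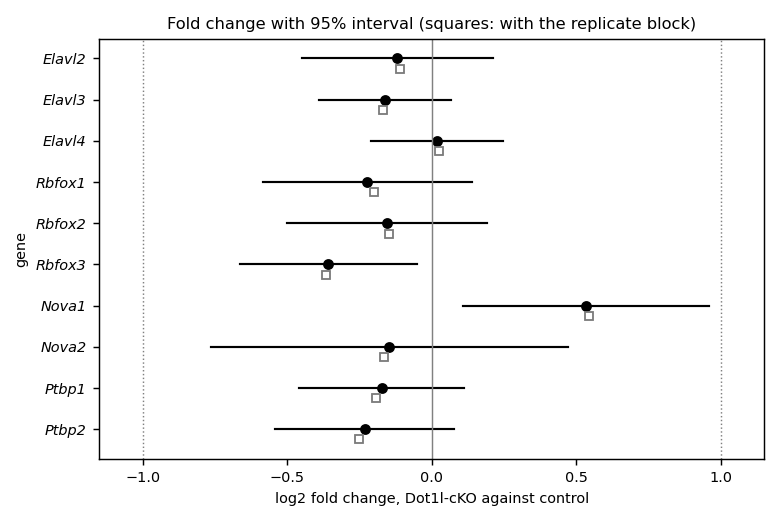
Log2 fold change of each gene, Dot1l-cKO against control (horizontal axis), from edgeR with its 95% interval (points and lines), and the value with the replicate number as a block (squares). All intervals lie between the dotted lines at -1 and 1, and those of Rbfox3 and Nova1 leave out 0 before adjustment for the number of genes tested.

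The largest difference by size among the 10 genes was that of Nova1, which sets neuronal exon choice mainly in hindbrain, spinal cord and subcortical regions, while Nova2 is the form of the cortex. Nova1 (ENSMUSG00000021047, chr12:46694517-46818929, minus strand) measured 21.3, 19.9, 11.99, 16.75 and 23.9 CPM in controls. In Dot1l-cKO it measured 36.85, 20.2, 24.6, 25.6 and 28.5 CPM. The Dot1l-cKO value was the higher in 5 of 5 pairs, by 0.027 to 1.03 on the log2 CPM scale. Control replicates 1 and 5 lay above Dot1l-cKO replicate 2, so the groups overlapped. The mean was 18.8 ± 4.58 CPM in controls against 27.2 ± 6.18 CPM in Dot1l-cKO (5 samples each, SD). The fold was 1.45 (log2 0.53, SE 0.19, interval 0.11 to 0.96), with an unadjusted p of 0.0182 and an edgeR adjusted p of 0.137. The difference of mean log2 CPM was 0.53 within the header-57 samples and 0.55 within the other 6. With the replicate block the log2 fold change was 0.54 (edgeR adjusted p = 0.0574), again short of the threshold. It was called only in the fit with both the block and the GC-content offset (0.60, edgeR adjusted p = 0.0239).

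Nova2 (ENSMUSG00000030411, chr7:18925888-18965319, plus strand) was the gene with the widest spread. Its controls measured 22.35, 34.7, 17.5, 28.1 and 38.0 CPM and its Dot1l-cKO samples 28.0, 10.75, 31.4, 27.9 and 29.0 CPM. Dot1l-cKO replicate 2 was far below the other 4 samples of its group. The log2 fold change was -0.15 (SE 0.28, interval -0.76 to 0.47, edgeR adjusted p = 0.818), and without that sample it was 0.046. No direction can therefore be given for Nova2.

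Within the Nova family, Nova1 took a larger share in Dot1l-cKO. The share of Nova1 in the summed RPKM (CPM per kilobase of merged exons) of both genes was 47.7%, 35.4%, 39.6%, 36.3% and 37.6% in controls. In Dot1l-cKO it was 55.7%, 64.3%, 42.9%, 46.8% and 48.5%. It was higher in 5 of 5 pairs, and control replicate 1 reached into the Dot1l-cKO range. The highest share, in Dot1l-cKO replicate 2, came with the low Nova2 value of that sample. These shares are a description and were not tested.

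Ptbp1, the progenitor form, lies on chromosome 10 (ENSMUSG00000006498, chr10:79854427-79864771, plus strand), 890 kb before the start of Dot1l. Its controls measured 225, 183, 197, 206 and 178 CPM. Its Dot1l-cKO samples measured 189, 128, 153, 193 and 214 CPM. Replicates 2 and 3 of Dot1l-cKO were below every control, and replicate 5 was above 4 of the 5 controls. Between the genotypes the log2 fold change was -0.17 (SE 0.13, interval -0.46 to 0.11, edgeR adjusted p = 0.509). Without Dot1l-cKO replicate 2 it was -0.081, and without Dot1l-cKO replicate 5 it was -0.26. The difference of mean log2 CPM was -0.44 within the header-57 samples and -0.028 within the other 6.

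Ptbp2, the neuronal form (ENSMUSG00000028134, chr3:119718742-119784466, minus strand), measured 448, 460.0, 403, 358 and 366 CPM in controls. In Dot1l-cKO it measured 364, 440.1, 384.5, 263 and 280.0 CPM. The Dot1l-cKO value was the lower in 5 of 5 pairs. The groups overlapped, with 3 Dot1l-cKO samples inside the range of the controls. The log2 fold change was -0.23 (SE 0.14, interval -0.54 to 0.078, edgeR adjusted p = 0.401), and with the replicate block the edgeR adjusted p was 0.0814. The difference of mean log2 CPM was -0.065 within the header-57 samples and -0.38 within the other 6. Without Dot1l-cKO replicate 4 the fitted log2 fold change was -0.15.

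The balance of Ptbp2 to Ptbp1, which rises as progenitors become neurons, differed in mean between the groups by less than the spread of the samples. The log2 ratio of their RPKM was 0.040, 0.38, 0.078, -0.16 and 0.087 in controls. It was -0.0081, 0.82, 0.38, -0.50 and -0.56 in Dot1l-cKO. The means were 0.086 ± 0.19 and 0.026 ± 0.59 (SD, n = 5 each), and the Dot1l-cKO samples lay on both sides of the controls. The ratio was higher in Dot1l-cKO in both header-57 pairs and lower in the other 3 pairs, so this mean averages differences of opposite sign. Whether the difference depends on the header number was not tested. Ptbp1 and Ptbp2 deviated from their group means in opposite directions (Pearson r = -0.662 over 10 samples, which share library, depth and base composition).

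Genes with a Ptbp-controlled exon that decides NMD were examined outside the 10 genes by their counts per gene. These counts do not measure inclusion of the exon, so they cannot show whether its splicing changed. Dlg4 (PSD-95), whose neuronal exon is repressed by both Ptbp proteins, was at 112 ± 23.9 CPM in controls against 123 ± 30.4 CPM in Dot1l-cKO (edgeR adjusted p = 0.758). Flna, an actin-binding protein whose transcripts are spliced under Ptbp control in progenitors, was at 689 ± 69.1 and 721 ± 99.5 CPM (edgeR adjusted p = 0.774). Ptbp3, the third paralog, was at 48.3 ± 5.79 and 51.8 ± 9.05 CPM (edgeR adjusted p = 0.719). None of these 3 genes passed the test, nor under any of the 24 alternative settings.

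Among regulators known to act on Ptbp1 or on neuronal splicing from upstream, 1 of 5 passed the test. Mir9-3hg, the host transcript of the Mir9-3 locus, measured 54.7, 68.3, 59.25, 66.2 and 55.25 CPM in controls. In Dot1l-cKO it measured 36.2, 44.9, 42.75, 49.6 and 41.5 CPM, and every Dot1l-cKO sample was below every control. It fell by 0.50 on the log2 scale (SE 0.096, edgeR adjusted p = 0.00974). It passed in 22 of the 24 alternatives, all but the fits within 4 or 6 samples. The level of a host transcript is not that of mature miR-9, which was not measured, and the 3 genes with its seed match, Rbfox2, Ptbp1 and Ptbp2, did not pass the test.

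The other members of that list did not pass the test as planned. C130071C03Rik, a host transcript of another miR-9 locus, had a log2 fold change of -0.27 (edgeR adjusted p = 0.0837). It was called lower in 6 of the 24 alternatives, among them DESeq2 (adjusted p = 0.0155) and the replicate block (edgeR adjusted p = 0.0299). Mir124-2hg, a host of miR-124, which represses Ptbp1, was at 99.7 ± 21.6 CPM in controls against 70.9 ± 7.22 CPM in Dot1l-cKO (log2 fold change -0.49, edgeR adjusted p = 0.0732). It was called lower in 3 alternatives, with DESeq2 (-0.52, adjusted p = 0.0194), within the 6 samples outside header number 57 (-0.66, edgeR adjusted p = 0.0169) and without control replicate 3 (-0.61, edgeR adjusted p = 0.00407). Mir124a-1hg had an edgeR adjusted p of 0.854. Rest, the repressor of neuronal genes in non-neural cells, was at 49.6 ± 8.5 and 42.8 ± 4.81 CPM (edgeR adjusted p = 0.365).

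Of 19 other splicing regulators with roles in the nervous system, 1 (5.26%) was called higher and 0 lower, against 7.11% called over all genes tested. The median log2 fold change of these 19 was -0.16. Celf6, a member of the CELF family with expression in neurons, measured 11.1, 13.6, 9.04, 11.5 and 13.9 CPM in controls. In Dot1l-cKO it measured 19.7, 16.9, 16.35, 18.9 and 19.4 CPM, above every control. It rose by a log2 fold change of 0.63 (SE 0.12, edgeR adjusted p = 0.00976) and passed in 23 of 24 alternatives, the exception being 2 against 2 samples within header number 57. Srrm4, the activator of neuronal microexons, was at 52.2 ± 7.71 CPM in controls against 40.3 ± 12.5 CPM in Dot1l-cKO (edgeR adjusted p = 0.382). With the replicate block, Khdrbs2 was called lower as well (log2 fold change -0.30, edgeR adjusted p = 0.0469), against 0.0686 without the block.

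Of 16 RNA-binding proteins of mRNA stability and translation, 1 (6.25%) was called higher and 0 lower (median -0.099), again against 7.11% over all genes. Cpeb1, which controls poly(A) length and translation, was low, at 0.322, 0.333, 0.584, 0.343 and 0.484 CPM in controls. In Dot1l-cKO it was at 0.8302, 0.7804, 0.7703, 0.784 and 0.934 CPM, with no overlap. Its log2 fold change was 0.98 (SE 0.20, edgeR adjusted p = 0.0146), and it passed in 20 of 24 alternatives. It did not pass within header number 57, within the other 6 samples, at an adjusted p of 0.01, or without replicate 2 of both groups.

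The broadly expressed splicing factors gave no call. Of 12 SR and Tra2 proteins, which promote exon inclusion, 0 passed, with 2 positive fold changes and a median of -0.15. Of 19 hnRNP proteins other than Ptbp, 0 passed, and 0 of 19 had a positive fold change, also with DESeq2's size factors, without mitochondrial genes, with the GC-content offset and with the replicate block. Their log2 fold changes ran from -0.46 to -0.055 with a median of -0.22. The median of all genes tested was between -0.0551 and -0.0056 under the same scalings. Among the 7610 genes at least as abundant as the least abundant of the 10, it was between -0.0971 and -0.0503, and 24% to 36.5% of them had a positive fold change. With the replicate block, Hnrnpa1, an abundant splicing repressor, was called lower (log2 fold change -0.37, edgeR adjusted p = 0.0407, against 0.198 without the block).

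**Figure D3:**
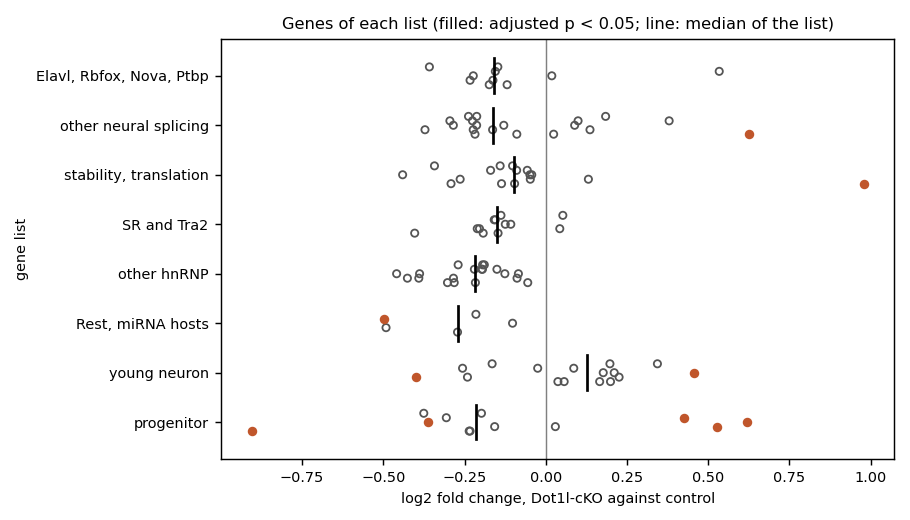
Log2 fold change, Dot1l-cKO against control (horizontal axis), of each tested gene of 8 lists (rows), with the median of the list as a line and genes with an edgeR adjusted p under 0.05 filled. None of the Elavl, Rbfox, Nova and Ptbp genes is filled. The 19 hnRNP genes all lie below 0 with none filled.

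Several markers of cells that the tissue can hold differed between the genotypes. Of 16 young neuron markers, 1 was called higher (Gap43, log2 fold change 0.46) and 1 lower (Myt1l, -0.40), and their summed level was 4945 to 7283 CPM in controls and 5759 to 7121 CPM in Dot1l-cKO. Of 12 progenitor markers, 3 were called higher (led by Fabp7, 0.62) and 2 lower (led by Ccnd1, -0.90). Their sums were 3628 to 4370 and 4203 to 4646 CPM, but only 4 of the 12 had a positive fold change (median log2 -0.22). Of 9 tested markers of ventral telencephalon and interneurons, 3 were called lower, led by Lhx6 (-3.0), with sums of 109 to 380 CPM in controls and 31.9 to 119 CPM in Dot1l-cKO. Nkx2-1 of that list was left out by the filter on low counts, and control replicate 2 stood apart, at 3.61 CPM against 0.0483 to 0.339 CPM in the other 9 samples. Of 6 Cajal-Retzius cell markers, 3 were called higher, led by Ndnf (1.61), with sums of 401 to 617 and 613 to 1180.0 CPM. All 7 microglia markers were called higher, led by Fcrls (1.19), with sums of 38.6 to 62.4 and 79.3 to 114 CPM. Of 3 tested thalamus markers 1 was called higher (Lhx9, 0.77), with sums of 45.4 to 76.1 and 61.25 to 87.5 CPM. The median log2 fold change of the 3 was 0.028 and the lowest was -0.13, so the list did not rise as a whole. Gbx2 of that list was left out by the same filter, and control replicate 1 stood apart, at 2.03 CPM against at most 0.0877 CPM elsewhere. With the replicate block, Neurod2 (young neuron, edgeR adjusted p = 0.0206) and Reln (Cajal-Retzius, 0.00412) were also called higher and Sox2 (progenitor, 0.00906) lower, while Aif1 (microglia, 0.073) lost its call, leaving 6 of 7.

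No gene was called among 8 striatal, 5 choroid plexus, 5 endothelium and 6 erythroid markers. The striatal sums were 43.1 to 128 and 47.0 to 80.3 CPM, and the choroid plexus sums 1.96 to 636 and 3.24 to 151 CPM. The endothelium sums were 112 to 206 and 102 to 237 CPM, and the erythroid sums 575 to 2478 and 875 to 2156 CPM. The 10 genes are made in several of these cell types, Nova1 and Rbfox3 among them, and the part of these shifts in their values was not tested.

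Of the 10 genes, 3 differed between the header-57 samples and the rest, which pool 3 other header numbers. Between the 4 header-57 samples and the other 6, with genotype in the model, edgeR called 1946 genes (11.4%), 903 higher and 1043 lower in header number 57. Elavl2, Rbfox1 and Rbfox2 were among them, and their CPM did not overlap between these sets. The share of all genes tested without overlap between these sets was not counted. Elavl2 was higher in the header-57 samples, at 198 to 247 CPM against 143 to 187 CPM (log2 difference 0.43, SE 0.084, edgeR adjusted p = 0.0104). Rbfox1 was lower, at 48.4 to 53.55 CPM against 61.9 to 90.7 CPM (-0.50, SE 0.083, edgeR adjusted p = 0.00538). Rbfox2 was lower, at 349.8 to 429.5 CPM against 496.5 to 631 CPM (-0.48, SE 0.075, edgeR adjusted p = 0.00407).

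The adjusted p of the other 7 genes in that comparison was 0.0935 to 0.765. Each set holds as many control as Dot1l-cKO samples. With the header number as a block, edgeR's adjusted p for the genotype difference was 0.0525 for Nova1, 0.0896 for Ptbp2 and 0.122 for Rbfox3. For Elavl2, Rbfox1 and Rbfox2 edgeR's adjusted p was 0.295, 0.167 and 0.239, against 0.717, 0.5 and 0.634 without the block. No gene of the 10 was called with this block. What the header number stands for was not tested. Across 16896 genes, this difference had a Pearson correlation of -0.102 with the GC content of the longest transcript.

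**Figure D4:**
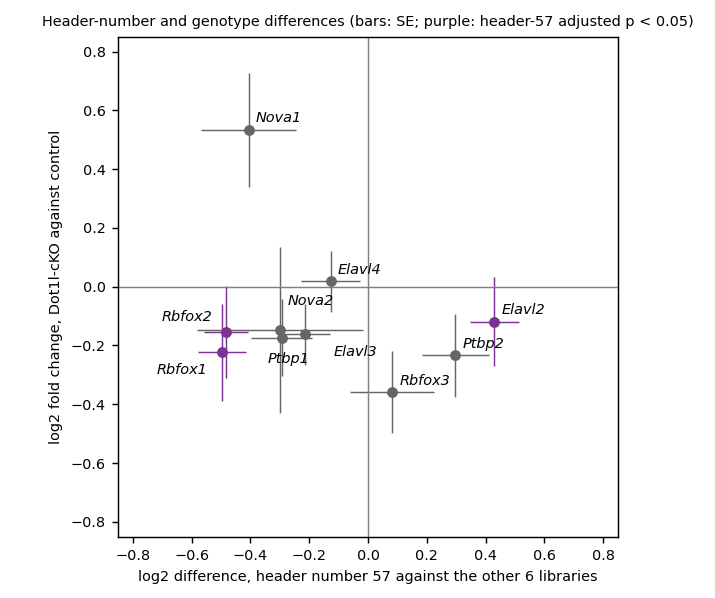
Log2 difference between the 4 header-57 samples and the other 6 (horizontal axis) against the log2 fold change between the genotypes (vertical axis) for each gene, on equal scales, with SE as bars. Elavl2, Rbfox1 and Rbfox2 (purple) had an edgeR adjusted p under 0.05 for the header-57 difference, and no gene had one for the genotype.

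Single samples carried several of the low values. Dot1l-cKO replicate 2 had the lowest CPM of all 10 samples for 6 of the 10 genes, namely Elavl3, Rbfox1, Rbfox2, Rbfox3, Nova2 and Ptbp1. The share of all genes with their lowest value in that sample was not counted. Whether these low values are particular to the 10 genes therefore cannot be told. Control replicate 5 had the highest for 4, Elavl3, Rbfox1, Rbfox2 and Nova2. In Dot1l-cKO replicate 2 the young neuron markers summed to 5759 CPM, the lowest of its group, and mitochondrial rRNA took 0.0471% of the counts, the lowest of all samples. The young neuron sum was lower still in control replicate 3, at 4945 CPM. That sample had the lowest CPM for 2 of the 10 genes, Elavl4 and Nova1, and the highest for Rbfox3.

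Levels per length placed the genes in an order with few clear steps. In controls the mean RPKM was 63.2 ± 13.0 for Rbfox2, 47.8 ± 4.62 for Elavl3, 44.4 ± 5.03 for Ptbp2 and 41.7 ± 3.97 for Ptbp1 (SD, n = 5 each). It was 32.6 ± 4.55 for Elavl4, 23.5 ± 4.77 for Elavl2 and 15.8 ± 3.86 for Rbfox1. The lowest levels were 7.21 ± 1.04 for Rbfox3, 3.36 ± 1.01 for Nova2 and 2.14 ± 0.524 for Nova1. Samples of neighbours in this order overlapped, except that Rbfox1 was above Rbfox3 and Rbfox3 above Nova2 in every control. In Dot1l-cKO the order was the same but for Nova1 (3.11 RPKM) and Nova2 (3.03 RPKM), which changed places. The order rests on the length used, since with the longest transcript in place of merged exons 5 of the 10 genes kept their rank and Ptbp2 came first, at 100.6 RPKM.

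Within the Elavl family, Elavl4 took 31.3% ± 2.33 of the summed RPKM in controls and 33.95% ± 2.35 in Dot1l-cKO (SD, n = 5 each). The share was higher in 5 of 5 pairs, with overlap between the groups. Within the Rbfox family, Rbfox2 took 73.1% ± 1.97 and 74.7% ± 1.13, and the log2 ratio of Rbfox3 to Rbfox2 was -3.12 ± 0.49 and -3.34 ± 0.23. By the group means each family had the same leading member in both genotypes, except Nova. These shares were not tested.

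The 10 genes did not vary as 1 set from sample to sample. After the group means were removed, Rbfox1 and Rbfox2 had a Pearson correlation of log2 CPM of 0.944 over the 10 samples, and Elavl3 and Rbfox2 one of 0.864. Elavl2 ran against Rbfox2 (-0.862) and with Ptbp2 (0.778). Samples can share header number, depth and base composition, so the values are a description. The same holds for the most similar genes among 12755 searched, which are high by selection.

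The gene most like Rbfox2 was Tnr, a matrix glycoprotein (r = 0.995), and that most like Rbfox1 was Scn3b, a sodium channel subunit (0.99). For Rbfox3 it was Ldb1, a transcriptional cofactor (0.973), for Nova1 Ppm1e, a phosphatase (0.963), and for Nova2 Soga1 (0.989). For Elavl2, Elavl3 and Elavl4 these were Tsr1 (0.992), Smpd3 (0.97) and Rhou (0.928). For Ptbp1 it was Lef1, a Wnt pathway transcription factor (0.981), and for Ptbp2 Smarcad1, a chromatin remodeller (0.992). None of these 10 similar genes passed the test between genotypes, with edgeR adjusted p from 0.164 to 0.915.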

How the data were processed

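Per the labels and the methods, the authors made stranded rRNA-depleted libraries, trimmed reads with Trim Galore 0.2.8, aligned them to mm10 with TopHat2 2.0.9 and counted them per Ensembl gene, strand by strand, with HTSeq 0.6.0. The deposited counts are whole reads per gene, not normalised. The deposited normalised counts, a signal per gene, are those counts divided by the DESeq2 1.6.1 size factor of the sample. The first number in their column names, unexplained in the labels, is called the header number.

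Symbols were matched to a GENCODE annotation of the same build (42462 of 43629 identifiers). Identifiers without one held 0.268% of counts. Reads carry no molecular identifiers, so depth speaks to counting error only. Chi-square per degree of freedom between replicates was at least 30.8, so each sample counted as 1.

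edgeR 4.0.16 (R 4.3.3) was run on all genes with filterByExpr, TMM and the quasi-likelihood test with no covariate, adjusted by Benjamini-Hochberg. CPM use TMM library sizes, log2 CPM a prior count of 2, and RPKM the merged exons. SEs are approximate. The fitting step was tested on simulated counts. Alternatives were DESeq2 1.42.0, its size factors, other filters, the replicate or header number as a block, the header-57 and other samples apart, limma 3.58.1 on log2 of the normalised values plus 1, a stricter threshold, no mitochondrial genes and each sample left out. A GC-content offset, alone and with the block, and leaving out replicate 2 of both groups were chosen after seeing the data.

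The replicate numbers were taken from the titles. Deviations of samples with the same number correlated at 0.131 to 0.597 (mean 0.29), and those with different numbers at -0.072 on average. Only 2 pairs correlated best with their own number, both ways. Samples with the same number also share the header number, so these values do not show pairing apart from it. With that limit, the numbers were used to pair the samples and as a block. The members and lists were chosen with earlier results of these data known. Named beyond the members are the largest called rise and fall of each list, all genes of the upstream and NMD lists, Dot1l, and the 3 genes most similar to each member, of which the first is given. Another gene of that rule is not reported here. Elavl1 was fixed for its ratio to Elavl3. Outside the rule, and named after their values were seen, are Srrm4, the genes whose call changed with the block (Khdrbs2, Hnrnpa1, Neurod2, Sox2, Reln, Aif1) and the markers left out by the filter (Nkx2-1, Gbx2).

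Nova1 overlaps an annotated gene (Gm33869) by 310 bases and Elavl3 another (Gm49318) by 256 bases on the same strand, neither among the listed identifiers. Nova2 and Ptbp1 have antisense partners over 2652 and 983 bases, which strand-wise counting separates.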

Additional observations from a re-analysis of the deposited data

Results flagged for a closer look

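Of the 20 sets of 5 samples examined (10 genes in each genotype), 1 held a sample far from the others. For Nova2 in Dot1l-cKO, replicate 2 was at 10.75 CPM, or 3.43 log2 CPM, against a group median of 4.81. Its gap to the nearest sample was 0.889 of the group's range, above the critical value of 0.71. Chance alone flags about 1 set in 20.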

How the results depend on the processing

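None of the 10 genes was called in 22 of 24 alternatives, including each sample left out, DESeq2 and both blocks. The exceptions were added after seeing the data. With the GC-content offset 1 was called, lower (Rbfox3, log2 fold change -0.44, edgeR adjusted p = 0.029). With the replicate block and that offset 2 were called, 1 lower (Rbfox3, -0.44, edgeR adjusted p = 0.0161) and 1 higher (Nova1, 0.60, 0.0239). The replicate block alone left the 10 genes uncalled and gave 495 lower genes against 246. Over all genes, DESeq2 called 2011 (663 lower), the header-number block 597 lower, the GC offset 503 lower, and the block with the offset 2038 (984 lower). The adjusted p of 0.01 gave 495, 422 higher and 73 lower. Within header number 57 the fit gave 1, 1 higher and 0 lower, and within the other 6 samples 745, 590 higher and 155 lower, with fewer samples in each. Leaving out 1 sample gave 750 to 1357 genes, 624 to 1076 higher and 126 to 343 lower, the fewest without control replicate 1 and 779 in all without control replicate 4, and 717, 588 and 129 without replicate 2 of both groups. Of the other RNA-binding and upstream genes 3 were called, against 8 with DESeq2, 6 with the replicate block, 7 with the header-number block, 5 with limma, 5 with the GC offset, 7 with block and offset, 0 within header number 57, and 3 to 4 without 1 sample. The causes of these differences were not tested.

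Some log2 fold changes near 0 changed sign. That of Elavl4 was -0.0089 with DESeq2 and with its size factors, -0.022 within the other 6 samples, -0.0034 with limma, and -0.040 to 0.099 without 1 sample (negative without control replicate 3 or Dot1l-cKO replicate 1). That of Nova2 was -0.28 to 0.046 without 1 sample (positive without Dot1l-cKO replicate 2) and 0.13 without replicate 2 of both groups. Mir124a-1hg was at 0.086 within header number 57 and -0.22 to 0.17 without 1 sample (positive without control replicate 5). Flna was at -0.0046 with the GC offset, -0.013 with the block and offset, and -0.020 to 0.12 without 1 sample (negative without Dot1l-cKO replicate 5).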
